A study of Mus musculus with 24 samples.

Results

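Ligands and co-factors of the Nodal, BMP, FGF and Wnt pathways were followed in female mouse embryonic stem cells that lack G9a and in their parental line. The 10 genes are Nodal, Lefty1, Lefty2, Tdgf1, Gdf3, Bmp4, Fgf8, Wnt3, Wnt3a and Wnt5a. They were found by gene symbol in the deposited gene table, where all 10 are among 24016 genes, and all 10 passed the filter on low values that left 20624 genes for testing. The knockout groups (KO) carry a deletion of G9a, a histone H3 lysine 9 methyltransferase, and they were set against the undeleted parental line (WT). Both lines are 16.7 Tsix +/TST cells, so every group carries that Tsix genotype. The labels do not say whether the knockout is 1 clone or which part of the gene was deleted. Cells were harvested undifferentiated (day 0) or on day 10 of differentiation, after LIF withdrawal with 4 days in suspension and 6 days on gelatin. Total RNA depleted of ribosomal RNA was sequenced in 3 libraries each of KO day 10, WT day 10, KO day 0 and WT day 0. H3K9ac, an acetylation mark found at active promoters, came from chromatin immunoprecipitation (ChIP), 1 sample in each of these groups.

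Nodal is a TGF-beta family ligand that signals through activin receptors and Smad2 and Smad3. It needs the membrane-bound co-receptor encoded by Tdgf1 (Cripto), and it induces its own secreted inhibitors, Lefty1 and Lefty2. In the mouse embryo Nodal, BMP4 and WNT3 act together to set up the primitive streak, FGF8 is needed for mesoderm cells to leave it, and WNT3A and WNT5A act in the tail end of the body axis. Mouse embryonic stem cells are known for expressing Nodal, both Lefty genes, Tdgf1 and Gdf3 before they differentiate.

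The promoters of 3 genes are printed because these genes show the 3 courses described here: Nodal passed the test in neither line, Tdgf1 fell and Wnt3 rose with differentiation. Each had a listed H3K9ac peak within 1 kilobase of its start in at least 3 of the 4 ChIP samples. The sequences are from RefSeq (GRCm38.p6), 5′ to 3′ on the gene's strand, from 250 bases before to 50 bases after the annotated start. Nodal is chr10:61417722-61418021 on the plus strand, Tdgf1 is chr9:110946109-110946408 on the minus strand and Wnt3 is chr11:103773925-103774224 on the plus strand. Capitals mark the letters CTTTGNT, a Tcf/Lef motif through which Wnt signals reach genes, searched on both strands.
Nodal: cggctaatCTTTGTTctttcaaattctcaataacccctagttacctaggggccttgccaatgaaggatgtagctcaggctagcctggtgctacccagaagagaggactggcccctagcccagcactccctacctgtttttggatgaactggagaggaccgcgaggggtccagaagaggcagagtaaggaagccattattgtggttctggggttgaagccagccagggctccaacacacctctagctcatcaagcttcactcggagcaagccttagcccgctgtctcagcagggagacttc
Tdgf1: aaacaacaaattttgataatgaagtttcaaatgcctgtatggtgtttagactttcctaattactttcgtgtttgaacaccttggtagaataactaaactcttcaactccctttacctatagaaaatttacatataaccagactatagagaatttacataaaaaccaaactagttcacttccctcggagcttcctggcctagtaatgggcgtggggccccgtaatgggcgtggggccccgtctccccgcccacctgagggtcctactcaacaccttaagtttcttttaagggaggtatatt
Wnt3: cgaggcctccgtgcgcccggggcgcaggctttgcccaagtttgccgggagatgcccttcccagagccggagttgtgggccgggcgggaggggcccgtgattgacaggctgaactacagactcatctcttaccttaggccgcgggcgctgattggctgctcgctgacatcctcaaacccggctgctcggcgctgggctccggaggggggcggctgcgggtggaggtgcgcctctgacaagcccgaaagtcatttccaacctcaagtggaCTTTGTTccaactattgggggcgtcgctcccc

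The Tcf/Lef letters were found in the Nodal promoter, with their first base 242 bases before the start, and in the Wnt3 promoter, with their first base 19 bases after it. They occur in 18.6% of 32851 mouse promoters of the same length, so a match is common. None of the 5 member promoters that the sequence table holds (Nodal, Tdgf1, Bmp4, Wnt3 and Wnt3a) contained TGTGNATT (FoxH1, a Nodal partner, 3.6% of promoters), the T-box letters TCACACC (3.98%) or the core promoter box TATAAA (13.6%). The 5 differ widely in composition. Wnt3a had 86.3% G and C with 45 CpG, Wnt3 65.7% with 24, Bmp4 64% with 12, Nodal 54% with 5 and Tdgf1 41.7% with 7, against medians of 52.7% and 7 over all promoters.

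Values are scaled reads, that is reads per gene scaled by the authors to the same total in every library. Whole reads could be recovered exactly from them, and the libraries held 2081129 to 30527844. KO day 0 replicates 2 and 3 and WT day 0 replicate 3 were the deep ones, with at least 21087157 reads, while the other 9, all 6 day 10 libraries among them, held at most 4220140. Rn45s, the gene of the ribosomal RNA precursor, took 0.114 to 0.129% of the reads in these 3 and 14.8 to 25.1% in the other 9; its part in the changes between days was not tested. Ehmt2, the gene of G9a, stood at 500 to 758 scaled reads in KO day 10, 719 to 1359 in WT day 10, 375 to 557 in KO day 0 and 987 to 1375 in WT day 0; reads of the whole gene body are counted, so the deletion itself is not visible. Olfactory and vomeronasal receptor genes, a measure of stray reads, took 837 CPM (reads scaled to library depth) in KO day 0 replicate 1 and 932 in WT day 10 replicate 3, against 25.8 to 309 in the other libraries. Col1a1, a collagen gene of fibroblasts, stood at 925 in KO day 0 replicate 1 and 3997 in WT day 0 replicate 1, against 47.8 to 91.9 in the other day 0 libraries. WT day 0 replicate 2 had the lowest sum of 7 stem cell markers at day 0 (17824, against 23799 to 35375 in the other 5). Nanog (2835), Zfp42 (2630), Sox2 (1399) and Tdh (551) were at their lowest of day 0 there. The markers did not all go this way, as its Pou5f1 (3724) was the highest of the day 0 libraries. Its Esrrb (4952) and Klf4 (1733) lay above those of KO day 0 replicate 1 (4181 and 1560). KO day 0 replicates 2 and 3 were the most alike of any pair of replicates (r = 0.993 on the log2 scale, across genes). Separate cultures are not stated in the labels, which number the RNA libraries as donors 1 to 12, so p-values measure only the spread between these samples. In bulk RNA, fewer cells of a type and less RNA per cell cannot be told apart.

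Per kilobase of gene span, introns included, the Nodal branch led at day 0. In KO day 0 Tdgf1 stood at 541 ± 206 scaled reads per kilobase, Lefty2 at 445 ± 27, Lefty1 at 302 ± 74.9, Gdf3 at 224 ± 111, Nodal at 79.9 ± 15.5 and Bmp4 at 30 ± 3.95 (SD, n = 3). Wnt5a, Fgf8, Wnt3a and Wnt3 lay between 0.72 and 1.99 there. In WT day 0 the order of the first 6 was the same, with Lefty2 (377 ± 294) and Lefty1 (357 ± 405) indistinguishable; Fgf8 stood at 5.02 and the 3 Wnt genes between 0.65 and 1.29. By day 10 the levels had drawn together. In KO day 10 Tdgf1 (195 ± 52.4), Lefty2 (186 ± 42.3) and Lefty1 (168 ± 55.3) did not differ beyond their spread, nor did Nodal (87.6 ± 16.5), Bmp4 (73.2 ± 24.3), Wnt5a (69 ± 27.4), Gdf3 (67.4 ± 8.49) and Fgf8 (65.3 ± 39.3). In WT day 10 Fgf8 had the highest mean per kilobase (122 ± 30.6), followed by Tdgf1 (94 ± 26.7) and Lefty1 (64.4 ± 37.2), while Nodal, Bmp4, Lefty2, Wnt5a and Gdf3 lay between 24.1 and 52.9. Wnt3 stood at 7.72 in KO day 10 and 9.74 in WT day 10, and Wnt3a was lowest at 0.37 and 0.75 in those groups. The order between genes depends on the span. It is 43.8 kilobases for Wnt3, 42.7 for Wnt3a and 20 for Wnt5a, against 3.36 to 7.37 for the others. In scaled reads without this division Wnt3 averaged 427 in WT day 10, Nodal 389 and Bmp4 368, while Wnt5a averaged 716 and Fgf8 741.

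**Figure D1:**
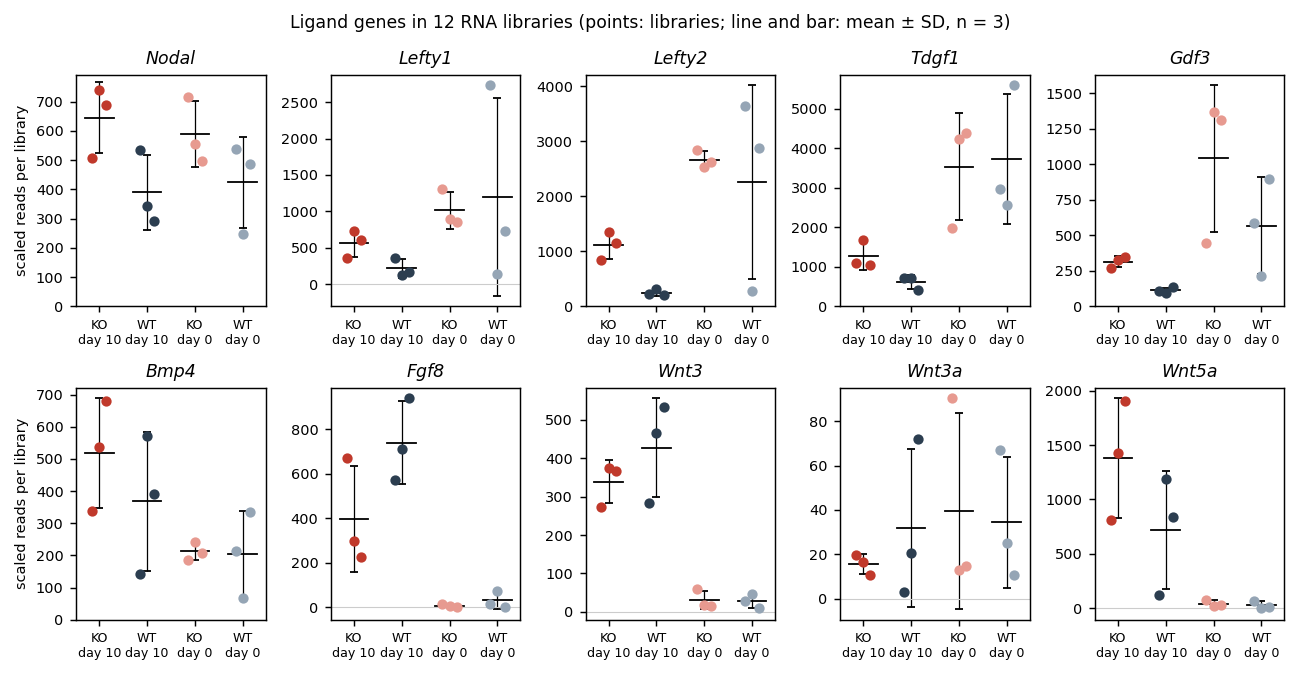
Scaled reads of the 10 genes in each of the 12 RNA libraries, by line and day (points are libraries, horizontal lines means, bars SD, n = 3 per group; each panel has its own linear axis). Fgf8, Wnt3 and Wnt5a lie near the bottom of the axis at day 0 in both lines and well above it at day 10, while Tdgf1 and Gdf3 run the other way; at day 10 Lefty1, Lefty2, Tdgf1 and Gdf3 are higher in all 3 KO libraries than in all 3 WT libraries.

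The first question was which of these genes changed as each line differentiated. Fgf8, Wnt3 and Wnt5a rose in both lines, Tdgf1 fell in both, and Gdf3 fell in WT. The calls of Tdgf1 in KO, Gdf3 in WT and Wnt5a in either line were lost under some settings. Those of Fgf8 and Wnt3, and of Tdgf1 in WT, held whichever library was left out. limma called 3 of the 10 genes higher and 1 lower in KO, where it called 2.43% of all genes higher and 6.46% lower (Benjamini-Hochberg adjusted p under 0.05 over 20624 genes). In WT it called 3 higher and 2 lower, where 2.02% of all genes were called higher and 2.4% lower. edgeR on the recovered reads called 3 higher and 0 lower in KO (3.74% and 3.41% of 14884 genes) and 3 higher and 3 lower in WT (3.4% and 3.64%). At an unadjusted p under 0.05 limma had 4 higher and 2 lower in KO (5.81% and 26.6% of all genes) and 3 higher and 4 lower in WT (6.21% and 10.6%). The days did not overlap in KO for 4 genes that were higher and 4 that were lower on day 10 (8.93% and 36.5% of all genes), and in WT for 3 and 2 (6.63% and 11.8%). The median log2 change over the 10 genes was -0.31 in KO and -0.33 in WT, against -0.68 and -0.20 over all genes. Median-of-ratios (RLE) scaling moved those medians of all genes to -0.41 in KO and -0.01 in WT, so changes are best read against them.

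Nodal itself passed the test between days in neither line. KO day 10 libraries held 508, 739 and 688 scaled reads and KO day 0 libraries 716, 554 and 497. WT day 10 libraries held 534, 344 and 290.3 and WT day 0 libraries 538, 246 and 486. The days overlapped in both lines. The log2 change was 0.13 in KO (95% interval -0.62 to 0.88, adjusted p = 0.808) and -0.09 in WT (-0.84 to 0.66, adjusted p = 0.941), and the sign in WT turned with RLE scaling (0.12), where the change was again small. A change within these intervals could not be told from none with 3 libraries.

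Lefty1, the Nodal antagonist of the embryonic midline, had 361, 726 and 607 scaled reads in KO day 10 and 1305, 890.3 and 849 in KO day 0. In WT it had 358, 121 and 169.6 on day 10 and 2734, 142 and 724 on day 0. All 3 KO day 10 libraries lay below the KO day 0 libraries, whereas WT day 0 replicate 2 lay among the WT day 10 values. Neither line passed the test (log2 change -0.88, SE 0.76, adjusted p = 0.422 in KO and -1.75, SE 0.76, adjusted p = 0.257 in WT). Without WT day 0 replicate 2, the day 0 library with the lowest sum of stem cell markers, the WT value was -2.85 (adjusted p = 0.0184). Without WT day 0 replicate 1 it was -0.72 and did not pass.

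Lefty2, the antagonist of the left lateral plate, had 841, 1342 and 1154 scaled reads in KO day 10 and 2846, 2533.5 and 2616 in KO day 0. WT had 222, 317 and 204 on day 10 and 3632, 271 and 2867 on day 0. The KO days did not overlap, while WT day 0 replicate 2 again sat with the day 10 libraries. limma gave -1.28 in KO (SE 0.69, adjusted p = 0.202) and -2.54 in WT (SE 0.69, adjusted p = 0.0522), neither of which passed. In WT edgeR gave -3.11 (adjusted p = 0.0164). The WT value was -3.72 without WT day 0 replicate 2 (adjusted p = 1.01e-04), -1.86 without WT day 0 replicate 1, and passed at an unchanged value without KO day 0 replicate 1 (adjusted p = 0.0356). In KO it passed without WT day 0 replicate 2 (adjusted p = 0.0223) and in a fit of the KO libraries alone (0.018).

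Tdgf1 encodes Cripto, the Nodal co-receptor. KO day 10 libraries held 1111, 1670.2 and 1046 scaled reads and KO day 0 libraries 1989, 4242 and 4394. In WT the day 10 libraries held 713, 721 and 414 and the day 0 libraries 2982, 2576 and 5611. The days did not overlap in either line. Tdgf1 fell in WT, by 2.55 on the log2 scale (SE 0.39, adjusted p = 0.0019), and this call held whichever library was left out (highest adjusted p = 0.00986). In KO it fell by 1.42 (SE 0.39, adjusted p = 0.0396), a call that ended with edgeR (0.0509), a pseudocount of 5 (0.0534), no filter (0.052), RLE scaling (0.0561) or the loss of any one of 5 KO libraries (up to 0.141). With a term for library depth the KO change was -0.78 (adjusted p = 0.0755).

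Gdf3, a ligand related to Nodal that also uses Cripto, had 269.7, 329 and 345 scaled reads in KO day 10 and 448, 1369 and 1313 in KO day 0. In WT it had 105, 96.8 and 135 on day 10 and 587, 217 and 898 on day 0. Every day 10 library lay below every day 0 library of its line. It fell in WT (log2 change -2.12, SE 0.50, adjusted p = 0.0265) and missed the threshold in KO (-1.57, SE 0.50, adjusted p = 0.0613). The WT call ended without WT day 0 replicate 1 (0.0765) or 3 (0.123), WT day 10 replicate 1 (0.084) or 2 (0.104) and in a fit of the WT libraries alone (0.061), and stood at the threshold without KO day 10 replicate 2 (0.05). In KO the change was -2.10 without KO day 0 replicate 1, which carries stray reads (adjusted p = 0.0114), passed at -1.57 without WT day 0 replicate 2 (0.0433) or 3 (0.0472) or WT day 10 replicate 3 (0.0403), and was -0.72 with a depth term (adjusted p = 0.182).

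The stem cell markers moved with these genes. Summed over 7 markers they stood at 10381, 10355 and 7971 scaled reads in KO day 10 and at 23799, 29389 and 30041 in KO day 0; in WT the sums were 5055, 5327 and 2659 on day 10 and 29935, 17824 and 35375 on day 0. All 7 passed as lower in WT and 4 of 7 in KO, and none of them was at 0 in any library. Their part in the changes of Tdgf1, Gdf3 and the Lefty genes was not tested.

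Bmp4, a BMP ligand of the early embryo that promotes mesoderm, had 337, 537 and 679.6 scaled reads in KO day 10 and 187, 242 and 208.5 in KO day 0. WT had 142, 572 and 391 on day 10 and 212, 66.8 and 334 on day 0. The KO days did not overlap and the WT days did. Neither passed: the log2 change was 1.23 in KO (SE 0.57, adjusted p = 0.152) and 0.91 in WT (SE 0.57, adjusted p = 0.474). In KO it passed with a depth term (1.90, adjusted p = 0.0432) and in a fit of the KO libraries alone (adjusted p = 0.0329).

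Fgf8, the FGF ligand of the primitive streak, had 670.4, 298 and 224 scaled reads in KO day 10 and 12.4, 5.54 and 3.3 in KO day 0, where these values stand for 4, 17 and 8 reads. In WT it had 571, 712 and 939.9 on day 10 and 14.2, 75.2 and 2.28 on day 0, or 4, 18 and 8 reads. Every day 10 library was above every day 0 library, and WT day 0 replicate 2 was the highest of the day 0 libraries. Fgf8 rose in both lines. The log2 change was 5.62 in KO (SE 0.87, adjusted p = 0.0033) and 5.54 in WT (SE 0.87, adjusted p = 0.0025), about 49.3-fold and 46.6-fold on the scale of log2(scaled reads + 1). Both calls held whichever library was left out, with values of 5.16 to 6.07 in KO and 4.42 to 6.69 in WT. A term for library depth gave 4.13 in KO and 5.03 in WT, and both still passed in limma.

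Wnt3, the Wnt ligand required to form the primitive streak, had 274, 375 and 367 scaled reads in KO day 10 and 59.2, 18.9 and 16.1 in KO day 0. In WT it had 284, 465 and 532 on day 10 and 28.3, 45.9 and 10.8 on day 0. The days were apart in both lines, with the highest KO day 0 value in replicate 1, which carries stray reads. Wnt3 rose by 3.62 in KO (SE 0.57, adjusted p = 0.0036, 12.3-fold) and by 4.03 in WT (SE 0.57, adjusted p = 0.0012, 16.3-fold). These calls too held without any one library, at 3.28 to 4.19 in KO and 3.48 to 4.47 in WT. With a term for library depth the Wnt3 change was smaller, at 2.69 in KO and 3.71 in WT, and still passed in limma.

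Wnt5a, a ligand that acts mostly without beta-catenin in outgrowth and cell movement, had 813, 1424 and 1909 scaled reads in KO day 10 and 74.7, 21.5 and 23.5 in KO day 0. WT had 120.4, 1188 and 839 on day 10 and 67.2, 0 and 10.5 on day 0. The days did not overlap, but WT day 10 replicate 1 stood far below its 2 replicates. Wnt5a rose in KO (log2 change 5.23, SE 1.18, adjusted p = 0.0219) and in WT (5.75, SE 1.18, adjusted p = 0.0125). Since 1 WT day 0 library is listed at 0, the WT size depends on the pseudocount, at 6.89 with 0.1 and 4.82 with 5. The KO call ended with a pseudocount of 0.1 (0.0563) and without KO day 0 replicate 2 (0.0661) or 3 (0.0676) or KO day 10 replicate 1 (0.0585), 2 (0.0801) or 3 (0.0961). The WT call ended without WT day 10 replicate 2 (0.0719) and in a fit of the WT libraries alone (0.105). The sum of 16 fibroblast markers was 20322, 30127 and 30373 in KO day 10 and 13040, 26098 and 15518 in WT day 10. WT day 10 replicate 1 was thus lowest and replicate 2 highest among WT in both measures. Fn1 held much of that sum, at 8405, 16004 and 9477 in WT day 10. Col1a1, Col5a1, Pdgfrb and Twist1 had the same order in WT day 10. Single markers differed, and Col1a2, Col3a1, Col5a2, Dcn, Lum, Postn and Fbn1 were highest in WT day 10 replicate 3. Dcn was at 0 in all 3 KO day 10 libraries and Lum in 2 of them, and the part of fibroblast-like cells in the Wnt5a values was not tested.

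Wnt3a, a ligand of the tail bud, stayed low. It had 19.8, 16.4 and 10.8 scaled reads in KO day 10, which are 5, 6 and 4 reads, and 90.3, 13 and 14.8 in KO day 0. WT had 3.09, 20.6 and 71.9 on day 10 and 67.2, 25.1 and 10.8 on day 0. The highest values are those of KO day 0 replicate 1 and WT day 10 replicate 3, which carry stray reads, and of WT day 0 replicate 1. The gene spans 42.7 kilobases. The groups overlapped in both lines and no change was detectable at this depth.

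**Figure D2:**
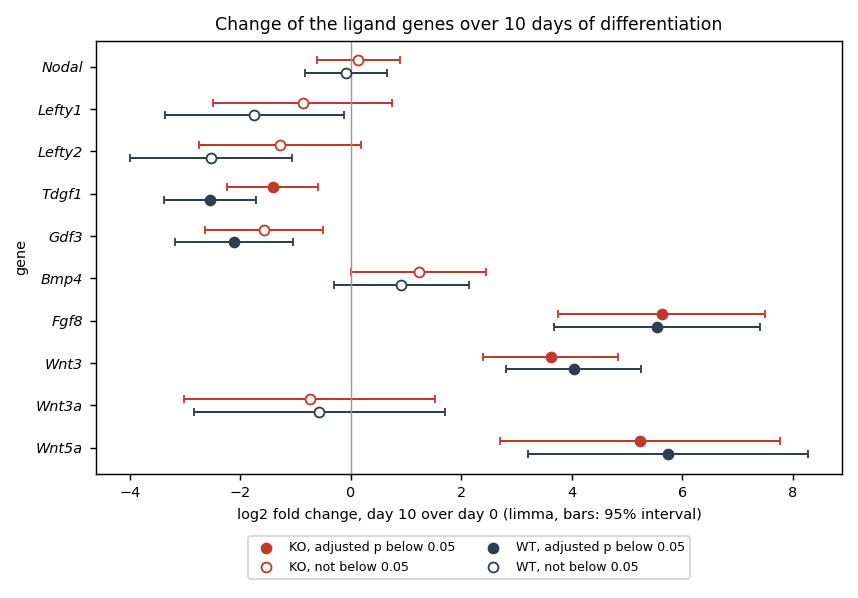
Log2 change of each gene from limma, day 10 over day 0, in KO (upper marker of each pair) and WT (lower marker), with 95% intervals; filled markers have an adjusted p below 0.05. Fgf8, Wnt3 and Wnt5a are filled on the right in both lines, Tdgf1 is filled on the left in both, Gdf3 is filled in WT, and the Nodal intervals span 0.

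Genes with the most similar course over the 12 libraries were looked up for each member by Pearson's r of log2(scaled reads + 1). Libraries of the 2 days stand apart, so a high r says only that 2 genes share that order. Fgf8 was closest to Psmb8 (0.96) and Itm2c (0.96), with Wnt3 next (0.96). Wnt3 was closest to Lpp (0.99) and Prtg (0.98), Wnt5a to Car3 (0.98) and Bmp4 to Cxcr4 (0.95), the gene of a chemokine receptor. Tdgf1 was closest to Zfp57 (0.99), a guardian of imprints, and Ooep (0.99), Gdf3 to Lrrc15 (0.97) and Pramel7 (0.97), Lefty2 to Rarg (0.96), a retinoic acid receptor gene, Lefty1 to Pml (0.93), Nodal to Armc6 (0.93) and Wnt3a to Rnf182 (0.96).

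Other genes of the same pathways were read from 9 lists of 6 to 20 genes, all of them tested. The counts of called genes in the lists stand beside 2.43% of all genes higher and 6.46% lower in KO. In WT these shares were 2.02% and 2.4%. A count of 1 gene lower in KO, in a list of 12 to 18 genes, is near the share of all genes. Among targets of BMP signaling 5 of 6 rose in KO and 4 of 6 in WT, with none lower. Msx1, a homeobox gene, averaged 429 ± 150 scaled reads in KO day 10 and 6.88 ± 0.83 in KO day 0 (log2 change 5.72, adjusted p = 0.0092), and 282 ± 215 in WT day 10 and 15.3 ± 16.9 in WT day 0 (4.72, adjusted p = 0.0198). Id3, an inhibitor of bHLH factors, averaged 477 ± 104 in KO day 10 and 119 ± 22.7 in KO day 0, and 269 ± 36.6 in WT day 10 and 91.8 ± 46.2 in WT day 0. Msx2 and Id1 were the other 2 of the 4 highest in KO (2.80 and 1.89), and Msx2 and Gata3, a GATA factor gene, in WT (3.51 and 3.85). The medians of this list were 1.94 in KO and 2.58 in WT, on the log2 scale. Markers of trophoblast, which include Gata3, rose at the same time for 5 of 7 genes in each line. Their sum was 7184 to 10399 scaled reads in KO day 10 and 651 to 1063 in KO day 0, and 4708 to 13003 in WT day 10 and 697 to 1065 in WT day 0. The keratin genes Krt8 and Krt18 held much of the day 10 sums, with means of 3175 and 3938 in KO and 3061 and 4537 in WT. Cdx2 was at 0 in 2 WT day 0 libraries and at 92.6 or more in every day 10 library. Tfap2c and Elf5 did not rise. Tfap2c averaged 500 in KO day 10 and 748 in KO day 0, and 430 in WT day 10 and 661 in WT day 0. Elf5 averaged 5.78 in KO day 10 and 24.3 in KO day 0, and 8.71 in WT day 10 and 10.8 in WT day 0. The part of trophoblast-like cells in the values of the BMP targets was not tested. Of 18 other BMP ligands, receptors, transducers and antagonists, 2 rose and 1 fell in KO and 3 rose in WT. In KO these were Bmp2, a ligand gene (211 ± 94.6 on day 10 and 15.5 ± 7.09 on day 0), Fst, an activin and BMP antagonist gene (2.44), and Grem1, another antagonist gene (-4.00). In WT they were Nog, also an antagonist gene (4.37, lost with edgeR at 0.0569), Fst (2.07) and Bmp7, a ligand gene (586 ± 84.7 on day 10 and 168 ± 95.1 on day 0).

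Targets of Nodal signaling in the embryo rose for 2 of 8 genes in KO and 3 of 8 in WT, none lower, while Nodal itself passed in neither line. T (Brachyury), the mesoderm factor gene of the streak, averaged 419 ± 124 scaled reads in KO day 10 and 8.38 ± 3.53 in KO day 0 (5.51, adjusted p = 2.02e-04), and 416 ± 28.1 in WT day 10 and 11.8 ± 11.6 in WT day 0 (5.42, adjusted p = 1.67e-04). Mixl1, a streak factor gene, rose by 4.23 in WT with overlapping groups. T and Mixl1 also answer Wnt and BMP signals. Among 14 receptors, transducers and processing enzymes of the Nodal branch, Furin rose (1.20 in KO and 1.01 in WT) and Pcsk6 fell (-1.17 in KO and -1.43 in WT) in both lines; both encode proteases that cleave the Nodal precursor. Pcsk6 in KO was lost with edgeR (0.0837). The 7 markers of primitive streak and mesoderm, T and Mixl1 among them, summed to 1702, 1068 and 1149 in KO day 10 and 165, 248 and 216 in KO day 0, and to 655, 1017 and 1299 in WT day 10 and 74.3, 138 and 198 in WT day 0; 2 of 7 rose in KO and 3 of 7 in WT, and the part of such cells in the values of Fgf8 and Wnt3 was not tested.

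In the FGF pathway 1 of 12 ligand and receptor genes other than Fgf8 rose and 1 fell in KO, and 3 rose and 1 fell in WT. Over all genes 2.43% were called higher and 6.46% lower in KO, and 2.02% and 2.4% in WT. Fgf4, the FGF ligand that stem cells make themselves, averaged 810 ± 126 scaled reads in KO day 10 and 2550 ± 512 in KO day 0 (-1.64, adjusted p = 0.0212), and 339 ± 163 in WT day 10 and 2839 ± 760 in WT day 0 (-3.17, adjusted p = 2.59e-04). Fgfr1, a receptor gene, rose in both lines (0.90 in KO and 1.08 in WT), and Fgfr2, another, rose in WT (2.04), as did Fgf5, the ligand gene of the primed epiblast (4.87). Of 9 feedback inhibitors and targets, Dusp6, Dusp4 and Il17rd, which dampen FGF signaling, rose in both lines by 1.68 to 2.24, and Etv4, an ETS factor gene, fell in WT (-1.87).

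Wnt targets rose for 3 of 10 genes in KO and 2 of 10 in WT, with none lower. Axin2, the negative feedback gene of the pathway, averaged 895 ± 178 scaled reads in KO day 10 and 84.7 ± 18.4 in KO day 0 (3.39, adjusted p = 9.84e-04), and 483 ± 177 in WT day 10 and 78.4 ± 42.9 in WT day 0 (2.70, adjusted p = 0.003). Sp5 rose in both lines (3.34 in KO and 4.76 in WT) and Lef1, a nuclear partner of beta-catenin, in KO (2.78). Among 15 other ligand and secretion genes 3 rose in KO (Wnt4, Wnt6 and Wnt8a, 3.07 to 3.62). In WT 3 rose, Wnt4 (3.21), Wnt8a (3.86) and Wls, the gene of the carrier that takes Wnt proteins to the cell surface (3.25), and Porcn, the gene of the enzyme that attaches lipid to them, fell (-2.01). Of 20 receptors, transducers and inhibitors 4 rose and 2 fell in each line. Dkk1, a secreted inhibitor gene, rose by 4.46 in KO and 5.26 in WT and Fzd2, a receptor gene, by 3.34 and 2.91, while Fzd5, another receptor gene, fell by 1.95 in KO and 2.57 in WT. Sfrp1, another inhibitor gene, fell in KO (-2.93), and Tcf7l2, a nuclear factor gene, rose in WT (2.09, lost with edgeR at 0.0954).

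**Figure D3:**
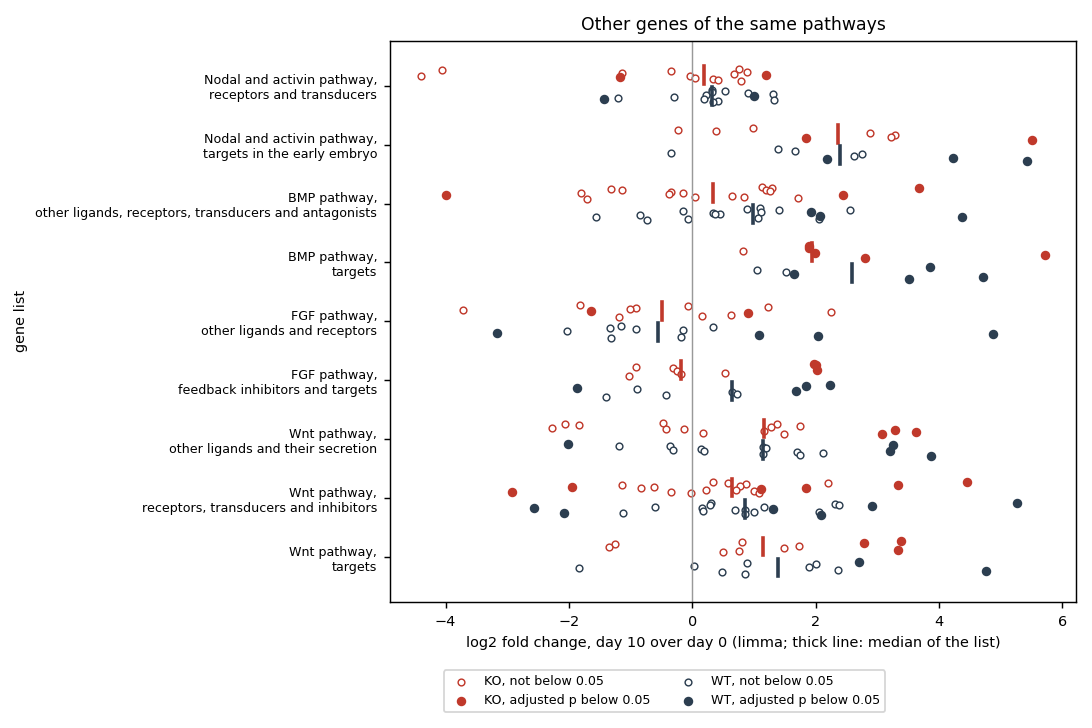
Log2 change of each gene of the 9 pathway lists from limma, day 10 over day 0, with KO in the upper row and WT in the lower row of each list (filled points have an adjusted p below 0.05, thick lines are medians). The BMP targets and the Nodal targets lie mostly to the right, with medians of 1.94 and 2.37 in KO and 2.58 and 2.40 in WT. The FGF ligands and receptors have medians of -0.50 in KO and -0.55 in WT, and all genes have medians of -0.68 and -0.20.

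The second question was what loss of G9a does to these genes. At day 0 none of the 10 was called by limma or edgeR, where 0% of all genes were called in either direction, and 0 of the 10 had an unadjusted p under 0.05, against 1.99% of all genes higher and 1.83% lower. The groups overlapped for all 10 genes (5.5% of all genes did not overlap with KO higher and 4.98% with KO lower). The nearest was Gdf3, at 1043 ± 516 scaled reads in KO day 0 and 567 ± 341 in WT day 0 (log2 0.94, SE 0.50, adjusted p = 0.993), which was 0.36 without WT day 0 replicate 2. Nodal averaged 589 ± 114 in KO day 0 and 423 ± 156 in WT day 0 (0.54, 95% interval -0.21 to 1.28). The median over the 10 genes was 0.43, against 0.17 for all genes.

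At day 10 the 5 genes of the Nodal branch had higher means in KO than in WT, but limma called 0 of the 10 genes and 0% of all genes, and edgeR likewise called none. At an unadjusted p under 0.05 limma had 4 of the 10 higher and 0 lower, against 2.06% of all genes higher and 9.88% lower. The groups did not overlap for 4 genes, all higher in KO, against 5.54% of all genes higher and 12.6% lower. The median log2 change over the 10 genes was 0.91, against -0.26 for all genes.

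Lefty2 averaged 1112 ± 253 scaled reads in KO day 10 and 248 ± 60.7 in WT day 10. Its log2 difference was 2.16 (95% interval 0.69 to 3.63, unadjusted p = 0.007, adjusted p = 0.248), higher in 3 of 3 KO libraries than in any WT library. Leaving out single libraries gave 2.01 to 2.35, with adjusted p from 0.0668 to 0.582. Gdf3 averaged 314 ± 39.6 in KO day 10 and 112 ± 20.2 in WT day 10 (1.48, unadjusted p = 0.0099, adjusted p = 0.262), and Tdgf1 1276 ± 343 in KO day 10 and 616 ± 175 in WT day 10 (1.06, unadjusted p = 0.0157, adjusted p = 0.301). Lefty1 averaged 564 ± 186 in KO day 10 and 216 ± 125 in WT day 10 (1.47, adjusted p = 0.449), with its lowest KO value, 361, just above its highest WT value, 358. Nodal averaged 645 ± 122 in KO day 10 and 389 ± 128 in WT day 10 (0.76, unadjusted p = 0.0479, adjusted p = 0.417), and the groups overlapped. In the authors' deposited table the same comparison has unadjusted p-values of 6.35e-11 for Lefty2 (log2 ratio 2.26), 3e-04 for Gdf3 (1.60), 9.8e-04 for Tdgf1 (1.14), 0.00178 for Lefty1 (1.46) and 0.0261 for Nodal (0.81), KO over WT; how those p-values were computed is not given in the sources used here.

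The stem cell markers differed in the same direction. Their sum was 10381, 10355 and 7971 scaled reads in KO day 10 against 5055, 5327 and 2659 in WT day 10, all 7 had a higher mean in KO, and 6 of 7 had an unadjusted p under 0.05 while 0 passed. Their part in the values of the Nodal branch was not tested.

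The other 5 genes had no common direction at day 10. Fgf8 averaged 398 ± 239 scaled reads in KO day 10 and 741 ± 186 in WT day 10 (-1.03, 95% interval -2.90 to 0.84), and Wnt3 339 ± 56.3 in KO day 10 and 427 ± 128 in WT day 10 (-0.30, -1.52 to 0.92). Bmp4 averaged 518 ± 172 in KO day 10 and 368 ± 216 in WT day 10 (0.65, -0.57 to 1.87), and Wnt5a 1382 ± 549 in KO day 10 and 716 ± 544 in WT day 10 (1.40, -1.14 to 3.93). Both turned on single WT day 10 libraries: without replicate 1 the difference was 0.07 for Bmp4 and 0.38 for Wnt5a, and without replicate 2 it was 1.07 for Bmp4 and 2.03 for Wnt5a. Over all fits without a single library Fgf8 ran from -1.49 to -0.70, and Wnt3 from -0.57 to -0.12. Wnt3a had 15.7 ± 4.57 in KO day 10 and 31.8 ± 35.7 in WT day 10. In all 5 the groups overlapped, and the intervals printed reach past 1 log2 unit in at least 1 direction.

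Whether differentiation changed the genes differently in the 2 lines was tested as the difference of their changes, KO minus WT. None of the 10 genes and 0% of all genes passed in limma or edgeR (0.853% of all genes higher and 7.85% lower at an unadjusted p under 0.05). Tdgf1 had the smallest unadjusted p, with a difference of 1.13 (95% interval -0.04 to 2.31, unadjusted p = 0.057, adjusted p = 0.576), and the difference was 0.50 without the libraries with stray reads (adjusted p = 0.822). For Lefty2 it was 1.25 (-0.83 to 3.33, adjusted p = 0.71), ranging from 0.57 without WT day 0 replicate 1 to 2.44 without WT day 0 replicate 2. For Fgf8 it was 0.08 (-2.56 to 2.72) and for Wnt3 -0.41 (-2.14 to 1.32). In the 9 pathway lists 0 genes passed between the lines on either day.

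**Figure D4:**
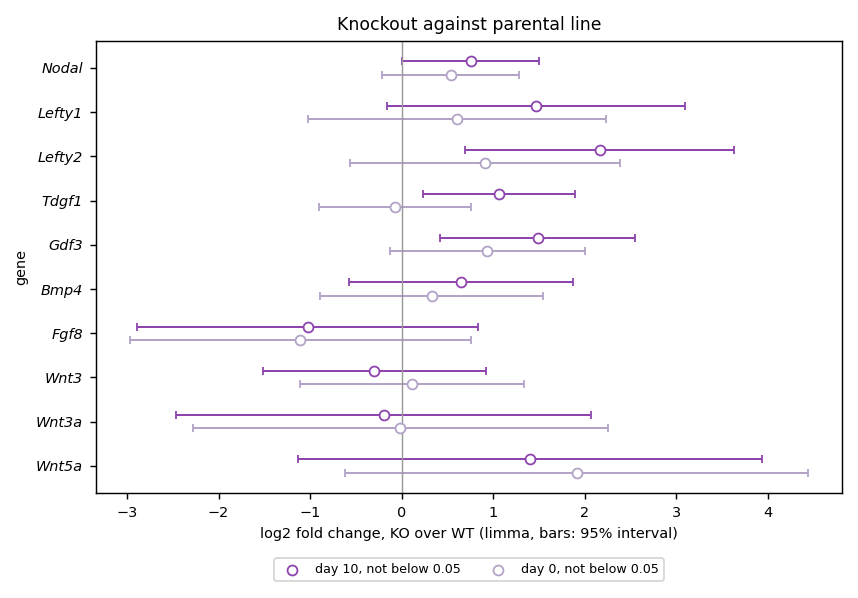
Log2 difference of each gene between KO and WT from limma, at day 10 (dark, upper marker) and day 0 (light, lower marker), with 95% intervals; all markers are open because none has an adjusted p below 0.05. At day 10 the intervals of Nodal, Lefty2, Tdgf1 and Gdf3 lie above 0, and at day 0 every interval spans 0.

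H3K9ac at the promoters of the 10 genes was read from the authors' peak lists, 1 sample per group and therefore with no test. A promoter was counted when a listed peak overlapped the region 1 kilobase either side of the gene start by at least 1 base. In KO day 10 a peak lay at 8 of the 10 promoters (52.1% of all genes had one), in WT day 10 at 6 (50.8%), in KO day 0 at 5 (40%) and in WT day 0 at 7 (49.7%). The order of the lines at day 10 turned with the window. Within 500 bases 5 promoters had a peak in KO (50.4% of all genes) and 6 in WT (49.2%). Within 2 kilobases 8 had one in KO (54.7%) and 9 in WT (52.9%). The lists were called separately and hold 37310 to 63050 peaks, so a missing peak is not a missing mark. All of these peaks were weak, with -log10 q from 0 to 3.23, and with a minimum of 5 none of the 10 promoters kept one, against 0.275 to 10.6% of all genes.

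Nodal, Lefty1, Tdgf1 and Gdf3 had a promoter peak in all 4 samples, including the WT day 10 sample, where RNA of Tdgf1 and Gdf3 was lowest. The authors' fold enrichment at Tdgf1 was 3.09 in KO day 10, 3.29 in WT day 10, 4.39 in KO day 0 and 3.43 in WT day 0, and the KO day 0 peak was above 89.5% of promoter peaks of its list. At Nodal, whose peaks span the start in all 4 samples, the fold enrichment was 3.11 in KO day 10, 3.51 in WT day 10, 3.70 in KO day 0 and 3.04 in WT day 0. These peaks were above 31.2, 39.1, 74.5 and 61.8% of promoter peaks of their lists, in that order. Lefty2 had a promoter peak in KO day 0 alone (2.77), though within 2 kilobases of the start WT day 10 and WT day 0 had one too. The promoters of Fgf8 and Wnt3 had a peak in KO day 10 (2.23 and 2.26), WT day 10 (3.00 and 2.96) and WT day 0 (2.25 and 2.49) and none in KO day 0. Wnt5a had one in KO day 10 alone, at chr14:29317803-29320401 (mm9), from 856 bases before to 1742 bases after the start, with a fold enrichment of 3.66. Within 2 kilobases of the Wnt5a start WT day 10 had a peak too (2.38). Bmp4 had one in KO day 10 (2.98) and WT day 0 (2.42), and Wnt3a had none in any sample.

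The deposited allele table assigns reads to a mus or a cas allele. Nodal, Lefty1, Gdf3, Bmp4, Fgf8 and Wnt5a were read almost wholly from the mus allele, at 99.1 to 100% of the allelic reads of all libraries together, and Wnt3a at 97.2% of 108 reads. For Fgf8 0 of 274 reads were cas, which allows a share of up to 1.09%. Genes within 1 megabase were of the same kind, with medians of 98.4 to 99.2% mus around these 7 genes, and 59.3% of 13301 autosomal genes with at least 100 allelic reads were over 95% mus. Tdgf1 on chromosome 9 and Wnt3 on chromosome 11 were read from both alleles, as were the genes around them (medians of 50.1% and 50.4% mus), although Wnt3a lies on chromosome 11 too.

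Tdgf1 was 42.5, 46 and 43% mus in KO day 10, 35.7, 47 and 41.5% in WT day 10, 48.1, 48 and 49.1% in KO day 0 and 42.4, 46.4 and 55.6% in WT day 0. All 6 day 10 libraries and 5 of 6 day 0 libraries were below 50%, and the value of 55.6% (Wilson 95% interval 54.9 to 56.4%, 16933 reads) belongs to the deepest library. Wnt3 was 45.1% mus in KO day 10 (37.2 to 53.3%, 144 reads), 50.9% in WT day 10 (44.4 to 57.3%, 230 reads), 62.9% in KO day 0 (46.3 to 76.8%, 35 reads) and 72.7% in WT day 0 (51.8 to 86.8%, 22 reads), each from 3 libraries summed. Lefty2 was 89.1, 80.6 and 93.5% mus in KO day 10, 81.2, 93.9 and 100% in WT day 10, 88.3, 91.5 and 91.6% in KO day 0 and 90, 91.7 and 91.1% in WT day 0. The low values of KO day 10 replicate 2 and WT day 10 replicate 1 rest on 227 and 32 reads, and the groups overlapped on both days. Over all libraries 890 of its 9809 allelic reads were cas (90.9% mus), whereas its neighbors had a median of 99.1% mus. Of these 19 neighbors 16 were over 95% mus, and the lowest stood at 86.5%, below Lefty2 itself. These intervals cover counting error only, and how reads were assigned to alleles is not given in the sources used here.

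**Figure D5:**
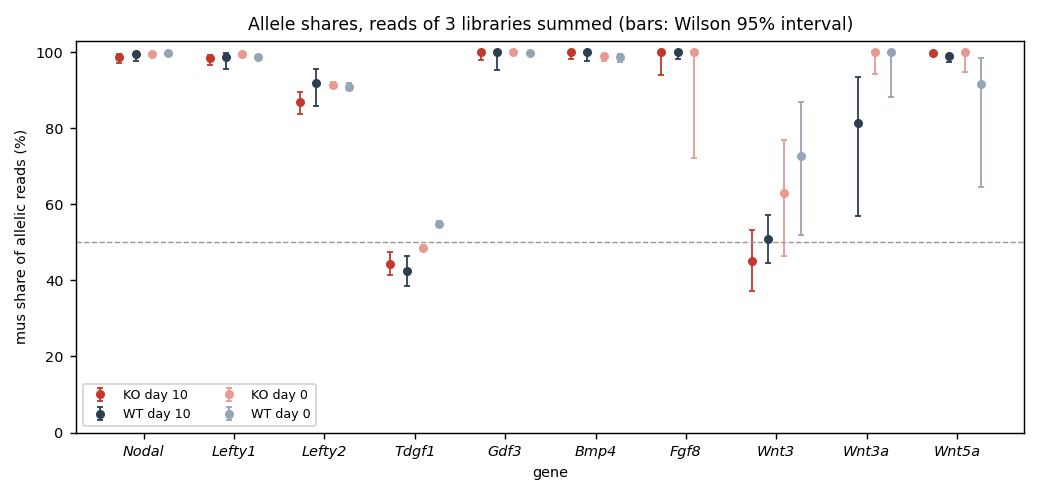
Share of mus reads among mus and cas reads of each gene by group, reads of 3 libraries summed, with Wilson 95% intervals (groups with fewer than 10 allelic reads are not drawn). Tdgf1 lies around 50% and Wnt3 between 45.1 and 72.7%, Lefty2 near 90%, Wnt3a at 81.2% on 16 reads in WT day 10 and Wnt5a at 91.7% on 12 reads in WT day 0, and the others close to 100%.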

How the data were processed

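Total RNA was measured in 12 libraries and H3K9ac by ChIP in 4 samples; 4 H3K9me2 samples were not used, 4 inputs enter only through the peak lists, and 2 of these inputs, whose labels name different days, were left unassigned. Per the submitters' processing notes the build is mm9 and TopHat, HOMER, Novoalign and MACS2 were used; versions, strand and the control of the peak calls are not given in the sources used here. The gene table deposited by the authors holds a signal, reads per gene scaled to a common total of 8689197 per library. Length equals the gene's span in 99.3% of genes, so introns appear to count. Whole reads were recovered from the steps between low values (100% of values whole within 0.006). The authors also deposited, for each pair of groups, log2 ratios with unadjusted p-values, and a second table with counts of reads from each allele per gene. The peak lists deposited by the authors give a fold enrichment, a -log10 p-value and a -log10 q-value per peak, with -log10 p of at least 2, so weaker peaks are not listed.

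Log2(scaled reads + 1) was fitted with limma 3.58.1 (trend, robust; R 4.3.3) on all 12 libraries in 4 groups, over genes above 1 scaled read in at least 3 libraries, with Benjamini-Hochberg adjustment over all genes and a threshold of 0.05. Errors are SD for means and moderated SE for changes. edgeR 4.0.16 (quasi-likelihood, TMM) was run on the recovered reads. Both were also run on simulated data, in which libraries differed in depth but not in stray reads or Rn45s share. Those runs do not show how the fits behave on libraries that differ in these ways. The fits have 1 read per 0.28 to 4.18 scaled reads as their resolution, depending on the library. Allele shares have Wilson 95% intervals and a floor of 3 counts where a count is 0. Peaks, alleles and promoters were handled in Python 3.11.15 with pandas 2.3.3, numpy 2.4.6 and scipy 1.17.1, and figures drawn with matplotlib 3.10.9. The promoter table held 5 of the 10 members; the other 5 (Lefty1, Lefty2, Gdf3, Fgf8 and Wnt5a) were not in it. The genes, pathway lists and alternatives were chosen with earlier results of these data known. Named in the text are the 10 members, up to 4 passing genes per pathway list and comparison with the largest change, and the closest of 3 genes per member by correlation over genes with a mean of at least 10 scaled reads. One gene of the pathway lists is not reported here. Alternatives were pseudocounts of 0.1 and 5, no filter, edgeR, RLE scaling, a replicate block, only the compared groups, a depth term, fits without the libraries with stray reads or with fibroblast reads, each library left out, and other peak settings.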

Additional observations from a re-analysis of the deposited data

How the results depend on the processing

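Of the recomputed values of single genes 635 kept direction and side of the threshold, 24 lost the threshold, 15 gained it and 6 changed sign. Nodal between days in WT changed sign with RLE scaling (0.12) and without the libraries with stray reads (0.10) or fibroblast reads (0.12), and ran from -0.44 to 0.12 without single libraries. Members called lower in KO between days numbered 1, but 0 with a pseudocount of 5, no filter, edgeR, RLE scaling or a depth term, 3 with only the compared groups, 2 without the libraries with stray reads and 2 without those with fibroblast reads, and 0 to 3 without single libraries; in WT they numbered 2, but 1 with only the compared groups and 1 to 4 without single libraries. Genes called over the whole table in KO between days were 502 higher and 1332 lower. They numbered 629 lower with a pseudocount of 5, 508 lower with edgeR, 785 higher and 700 lower with RLE scaling, 783 and 3382 with only the compared groups, 2352 lower with a depth term, 990 and 4419 without the libraries with stray reads, 901 and 2676 without those with fibroblast reads, and 113 to 739 higher and 86 to 3757 lower without single libraries. In WT between days 417 higher and 494 lower became 215 and 157 with only the compared groups, 676 and 838 with a depth term, 651 and 1490 without stray reads, 797 and 1372 without fibroblast reads, 589 and 399 with RLE scaling, and 223 to 617 and 196 to 772 without single libraries. Between KO and WT at day 10, where 0 genes were called, a pseudocount of 0.1 called 7 higher and 104 lower, only the compared groups 1 higher, a depth term 18 and 23, and the fit without fibroblast reads 1 higher, with 0 to 1 higher without single libraries, none of them a member; at day 0 this was 0 to 1 as well. The cause of these shifts was not tested.

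Same-numbered replicates of different groups correlated from -0.58 to 0.58 in their deviations from group means. Replicates with different numbers were not compared, so these values cannot decide whether the numbers pair the libraries. A replicate block left all 51 results it was applied to on their side; Tdgf1 in KO, for example, had an adjusted p of 0.0479 and Lefty2 between KO and WT at day 10 one of 0.32. With a promoter window of 500 bases 5 members had an H3K9ac peak in KO day 10 and 6 in WT day 10. A window of 2 kilobases gave 8 in KO day 10 and 9 in WT day 10. With a -log10 q of at least 5, 0 members had one in KO day 10, WT day 10, KO day 0 and WT day 0. Depth limits Fgf8, Wnt3, Wnt3a and Wnt5a at day 0, where shallow libraries hold 0 to 29 reads of each gene.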

Other observations

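Some pathway genes outside the 10 stood apart between the lines without passing in limma or edgeR; they were chosen after their values were seen. At day 10 Fgf4, the FGF ligand that stem cells make, averaged 810 ± 126 scaled reads in KO and 339 ± 163 in WT (log2 1.38, unadjusted p = 0.00213, adjusted p = 0.21). Etv4 and Etv5, ETS factor genes that FGF signals induce, averaged 402 ± 58.7 in KO and 182 ± 11 in WT (1.13), and 2579 ± 149 in KO and 1455 ± 149 in WT (0.83). Bmp7, a BMP ligand gene, averaged 227 ± 58.4 in KO and 586 ± 84.7 in WT (-1.38, adjusted p = 0.21), and Fgfr2, an FGF receptor gene, 892 ± 87.5 in KO and 1598 ± 208 in WT (-0.84). In each of these 5 genes the groups did not overlap, with all 3 KO libraries on 1 side. Over all genes 5.54% did not overlap with KO higher and 12.6% with KO lower. Axin2 averaged 895 ± 178 in KO and 483 ± 177 in WT (0.94, unadjusted p = 0.0496). At an unadjusted p under 0.05 each of the 9 pathway lists held 0 to 2 genes higher and 0 to 1 lower on that day, against 2.06% of all genes higher and 9.88% lower.

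At day 0 Wls, the gene of the Wnt carrier, averaged 275 ± 32.6 scaled reads in KO and 95 ± 24.8 in WT (1.55, unadjusted p = 0.00236, adjusted p = 0.993), and Gata3 60 ± 19.6 in KO and 22.6 ± 10.4 in WT (1.44). Neither group pair overlapped, where 5.5% of all genes did not overlap with KO higher and 4.98% with KO lower. Wls also rose with differentiation in WT, which left it at 1001 ± 503 in WT day 10.

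Among H3K9ac peaks that reach within 20 kilobases of the bodies of the 10 genes, those with a -log10 q of at least 5 lay near Fgf8 and Wnt3a. The Fgf8 peak, 1 of 4 in KO day 10, was centred 6.5 kilobases before the gene start (fold enrichment 5.28, -log10 q 5.31). An overlapping peak in WT day 10 lay just under the cutoff (4.95, -log10 q 4.3). Weaker peaks overlapped it in KO day 0 (2.86) and WT day 0 (2.45). The Wnt3a peaks, 1 of 5 in KO day 10 and 1 of 6 in WT day 10, were centred 63.6 and 63.5 kilobases after the start, beyond the far end of the gene.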
